A study of Mus musculus with 2 samples.

Results

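The protocadherins are a large subfamily of the cadherins, the calcium-dependent adhesion proteins of the cell surface. All genes whose symbols start with Pcdh followed by the letters of a clustered family or by a number were taken as members, without pseudogenes or provisional transcripts. This gave 70 of the 33696 genes in the count tables: 14 Pcdha, 22 Pcdhb and 22 Pcdhg genes of the clustered loci and 12 non-clustered genes. The rule used symbols and no expression value, though it was chosen with earlier results of these data known.

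The clustered genes lie in tandem on chromosome 18. Each Pcdha and Pcdhg variable exon has its own promoter and is spliced to constant exons that its family shares, whereas Pcdhb genes have no shared constant exons. A neuron uses a small, largely random set of the variable promoters, chosen with CTCF and cohesin, while the C-type isoforms at the ends of the Pcdha and Pcdhg arrays are used more uniformly. The proteins bind their own kind across membranes, and sister branches of a neuron recognise and avoid each other through them. Non-clustered protocadherins are single genes with more regional patterns, and several of them act in axon outgrowth, fasciculation and synapse formation, including in the hippocampus.

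The study asked what loss of Capicua (Cic), an HMG-box transcriptional repressor, does to the mouse hippocampus. Single-nucleus RNA-seq libraries were made at postnatal day 19 from a Cic flox/flox control and from Emx1-Cre; Cic flox/flox, in which Cre is driven by Emx1, a gene of the dorsal telencephalic lineage that gives rise to excitatory neurons and much of the glia. Both groups thus carry the floxed allele and differ in Cre. There was 1 library per genotype, each pooled from 3 littermate mice (2 males and 1 female), with 1 hippocampus taken from each mouse.

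With 1 library per genotype there is no replicate error, nothing was tested, and animals, littermate pools and library preparation cannot be told apart from genotype. All intervals are exact 95% intervals that cover counting error only. The tables held 25907 barcodes in the control and 23207 in the labelled knockout, and 175 barcode sequences occurred in both. After filters on genes, mitochondrial share and doublets, 21782 and 20569 nuclei with median depths of 9786 and 8765 UMIs (unique molecular identifiers, 1 per captured transcript) were used. They were clustered without the 70 members, and clusters were named from marker genes into 15 classes. Classes with the markers of dentate granule, CA3, CA2 and CA1 neurons were all among them, as the hippocampus label requires. Cic itself was no lower in the library with the knockout label: dentate granule-like nuclei had 487 Cic UMIs in the control and 459 there, for a log2 ratio of 0.44 (0.25 to 0.63). The counts do not show which part of the gene a UMI came from, so they do not check the deletion, and the library is called the labelled knockout throughout.

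Levels are UMIs of a gene per 1000000 UMIs of its class (CPM), and the log2 ratio is the labelled knockout over the control with 0.5 UMI added to each. A member was compared in a class where it had at least 20 UMIs over both libraries. A level compares 1 gene between classes or libraries and never different genes, since the values are not per length and depend on where each gene can be primed.

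Capture differed widely between members. Of 1050 pairs of a member and a class, 623 reached 20 UMIs. Pcdh1, Pcdh7, Pcdh9, Pcdh10, Pcdh11x, Pcdh15, Pcdh17, Pcdh19, Pcdh20 and Pcdhga5 did so in all 15 classes. Pcdhac1, Pcdhb1 and Pcdh12, the last known from vascular endothelium, did so in none. Exon sharing limits what a UMI can tell: in the annotation used for overlaps (mouse GRCm38), all 14 Pcdha and all 22 Pcdhg genes share exons with other members, against 2 of 22 Pcdhb genes and 0 of 12 non-clustered genes. A single Pcdha or Pcdhg gene's count is therefore uncertain. How UMIs of shared exons were assigned is not known, so how much of the Pcdha or Pcdhg family its sum covers is uncertain too.

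Across all classes, 25 of the 623 pairs (4.01%) were at least 2-fold apart, against 3.98% of all gene and class pairs with the same minimum. Of the 25 pairs, 14 were higher in the labelled knockout and 11 were lower, 22 were clustered genes, and 23 had under 100 UMIs, with a median of 30. The members thus passed 2-fold at the share of all genes. With a stricter minimum of 50 UMIs and 10 CPM in the higher library, 134 pairs remained and 2 were at least 2-fold apart, against 1.57% of all pairs with that minimum. Both were Pcdh15, in CA2-like and in radial glia-like nuclei.

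The promoters of 3 non-clustered genes are shown because their dentate ratios differ and their starts differ in base composition and motifs. The contrast between the windows follows from that choice, and a link between sequence and ratio was not tested. Over the class of dentate granule-like nuclei, Pcdh15 had a positive ratio, Pcdh17 a negative one and Pcdh9 the deepest counts with a ratio near 0. Values by cluster are given below. Each line gives the 250 bases before the start in RefSeq, mouse build GRCm38.p6, 5′ to 3′ on the gene's strand, with matches to TATAAA or CCAAT on either strand in capitals. None of the 3 windows overlaps an annotated exon of its gene, and the Pcdh15 window belongs to 1 of that gene's starts, inside the longer annotated gene. The window of Pcdh7, lower in dentate granule-like nuclei, runs into an annotated exon and is not shown.
Pcdh15, chr10:73821617-73821866 plus strand: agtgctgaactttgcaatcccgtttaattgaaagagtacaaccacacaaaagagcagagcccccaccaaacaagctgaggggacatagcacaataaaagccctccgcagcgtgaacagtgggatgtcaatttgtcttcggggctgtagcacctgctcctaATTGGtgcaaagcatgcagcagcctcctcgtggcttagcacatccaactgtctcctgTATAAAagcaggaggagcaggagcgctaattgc
Pcdh17, chr14:84443313-84443562 plus strand: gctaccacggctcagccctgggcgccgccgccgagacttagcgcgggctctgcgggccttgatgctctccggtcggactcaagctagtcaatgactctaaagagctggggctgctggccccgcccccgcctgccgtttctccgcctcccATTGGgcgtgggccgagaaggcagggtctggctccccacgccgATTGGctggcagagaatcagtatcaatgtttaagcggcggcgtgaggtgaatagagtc
Pcdh9, chr14:93890680-93890929 minus strand: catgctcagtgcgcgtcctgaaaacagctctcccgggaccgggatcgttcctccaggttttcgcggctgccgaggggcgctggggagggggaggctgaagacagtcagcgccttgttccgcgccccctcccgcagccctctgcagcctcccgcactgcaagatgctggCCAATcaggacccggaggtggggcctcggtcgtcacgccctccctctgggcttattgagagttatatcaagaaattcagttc

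The Pcdh15 window is the least GC-rich of the 3, at 50.4% G and C, and holds a TATAAA match close to the start. The other windows hold no TATAAA and have 64.8% (Pcdh17) and 63.6% (Pcdh9) G and C. All 3 hold CCAAT, and Pcdh17 holds it more than once. Over the 9 non-clustered genes with a RefSeq entry (10 windows), CCAAT occurred in 9 windows, all but that of Pcdh7, and TATAAA in 2 (Pcdh15 and Pcdh8), against 33.8% and 12.4% of 32851 mouse promoter windows of the same length. The octamers that Capicua is known to bind, TGAATGAA, TCAATGAA, TGAATGGA and TCAATGGA, occurred in 0 of the 10 windows on either strand, against 1.08%, 0.642%, 1.01% and 0.521% of all windows. The core CCGGAA of ETS factors also occurred in 0, against 12% of all windows. No match says only that these letters are not in these windows.

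Pcdh15, a tip-link protein of hair cells that oligodendrocyte precursors also express, had levels that differed widely between classes. Its highest control level was in oligodendrocyte precursor-like nuclei, at 4418 and 4021 CPM in control and labelled knockout. Immature dentate granule-like nuclei followed at 2241 and 2132 CPM, cycling progenitor-like at 1173 and 877 CPM, and subicular or cortical excitatory-like at 1099 and 1044 CPM. At full depth, 26.4% and 27.1% of cycling progenitor-like nuclei held a Pcdh15 UMI, against 95.6% and 95.7% of immature dentate granule-like nuclei. The cycling progenitor-like level thus came from a minority of its nuclei. Inhibitory-like nuclei had 956 and 839 CPM and committed oligodendrocyte precursor-like 602 and 884 CPM. The rest of the hippocampal neurons were far lower, with 206 and 377 CPM in dentate granule-like, 127 and 107 CPM in CA3-like, 65.6 and 273 CPM in CA2-like and 62.7 and 109.6 CPM in CA1-like nuclei. Cajal-Retzius-like nuclei had 163 and 261 CPM, oligodendrocyte-like 144 and 77.5 CPM and radial glia-like 87.5 and 199 CPM. Microglia-like (32.6 and 37.2 CPM) and astrocyte-like nuclei (19.8 and 19.5 CPM) were lowest. In the control, the level in immature dentate granule-like nuclei was thus many times that in dentate granule-like nuclei.

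Pcdh7, a delta protocadherin that binds its own kind, was highest in the oligodendrocyte lineage and astrocytes, and low in dentate granule-like nuclei. Committed oligodendrocyte precursor-like nuclei had 4429.5 and 3514 CPM, oligodendrocyte-like 1947 and 1592 CPM, oligodendrocyte precursor-like 1730.4 and 1737 CPM and astrocyte-like 1619.5 and 1705 CPM. Inhibitory-like nuclei had 913 and 884 CPM, CA3-like 708 and 658 CPM, cycling progenitor-like 657 and 633 CPM and immature dentate granule-like 499.6 and 643 CPM. The values were 470.4 and 418 CPM in subicular or cortical excitatory-like, 327 and 328 CPM in CA2-like, 229 and 262 CPM in Cajal-Retzius-like, 171 and 105 CPM in CA1-like and 165 and 218 CPM in radial glia-like nuclei. Dentate granule-like (59.4 and 32.6 CPM) and microglia-like nuclei (44.2 and 50.3 CPM) were lowest. Among the CA classes the control order was CA3-like, CA2-like, CA1-like.

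Pcdh9, another delta protocadherin, was counted in every class and dominated by oligodendrocytes. Oligodendrocyte-like nuclei had 38072 and 29907 CPM, far above oligodendrocyte precursor-like (7314 and 7095 CPM) and CA2-like nuclei (6409.7 and 5769.8 CPM). CA3-like nuclei had 5352 and 5037 CPM, inhibitory-like 4951 and 4860.1 CPM, subicular or cortical excitatory-like 4729 and 4285 CPM and astrocyte-like 4691 and 4780.4 CPM. Committed oligodendrocyte precursor-like nuclei had 4652 and 5282 CPM, dentate granule-like 4061 and 3938 CPM, radial glia-like 2952 and 3051 CPM and CA1-like 2848 and 2323 CPM. Immature dentate granule-like (2557 and 2123 CPM), cycling progenitor-like (2188 and 1929 CPM) and Cajal-Retzius-like nuclei (1132 and 1637 CPM) were lower, and microglia-like nuclei lowest at 311 and 242 CPM. The control level was higher in CA2-like and CA3-like than in CA1-like nuclei.

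Pcdh17, which is known to organise presynaptic terminals, and Pcdh11x, an X-linked delta protocadherin, were also highest in the oligodendrocyte lineage. Pcdh17 had 512 and 484 CPM in committed oligodendrocyte precursor-like, 407 and 439 CPM in oligodendrocyte-like and 398 and 366 CPM in oligodendrocyte precursor-like nuclei. Next were astrocyte-like (222 and 236 CPM), dentate granule-like (208 and 160.1 CPM), subicular or cortical excitatory-like (167 and 151 CPM), inhibitory-like (164 and 151 CPM) and cycling progenitor-like nuclei (138 and 155 CPM). Dentate granule-like nuclei thus had the highest Pcdh17 level of the neuronal classes in the control. CA1-like nuclei had 120.3 and 117 CPM, CA2-like 81.3 and 82.6 CPM, CA3-like 78.4 and 74.0 CPM and immature dentate granule-like 77.8 and 71.4 CPM. Cajal-Retzius-like (69.4 and 65.2 CPM), radial glia-like (63.2 and 81.7 CPM) and microglia-like nuclei (36.9 and 40.2 CPM) were lowest.

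Pcdh11x was led by oligodendrocyte precursor-like nuclei with 1396 and 1369.5 CPM, followed by cycling progenitor-like (502 and 449.8 CPM), oligodendrocyte-like (498 and 284 CPM) and committed oligodendrocyte precursor-like nuclei (481 and 540.4 CPM). At full depth, 20.5% and 24.0% of cycling progenitor-like nuclei held a Pcdh11x UMI, against 96.3% and 94.0% of oligodendrocyte precursor-like nuclei. Cajal-Retzius-like nuclei had 312 and 277 CPM, astrocyte-like 213 and 211 CPM, inhibitory-like 142 and 159 CPM, dentate granule-like 118 and 159 CPM and radial glia-like 64.4 and 69.1 CPM. The excitatory classes other than granule neurons were low, with 50.9 and 57.6 CPM in subicular or cortical excitatory-like, 46.1 and 48.8 CPM in CA3-like, 29.7 and 53.8 CPM in CA2-like and 25.0 and 32.5 CPM in CA1-like nuclei. Immature dentate granule-like (18.1 and 27.9 CPM) and microglia-like nuclei (14.6 and 11.3 CPM) were lowest. Within the granule lineage the order was therefore opposite to that of Pcdh15: Pcdh11x was higher in dentate granule-like nuclei and Pcdh15 in immature ones.

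Pcdh19, the X-linked gene mutated in a female-limited epilepsy, was led by neurons. Its control levels were highest in dentate granule-like (105 and 107 CPM), inhibitory-like (98.6 and 108 CPM) and CA1-like nuclei (86.6 and 82.6 CPM). Oligodendrocyte-like (57.2 and 78.6 CPM), immature dentate granule-like (57.0 and 39.2 CPM), oligodendrocyte precursor-like (55.9 and 55.2 CPM), subicular or cortical excitatory-like (52.3 and 54.6 CPM) and CA3-like nuclei (51.4 and 48.2 CPM) lay between. Committed oligodendrocyte precursor-like (42.8 and 40.9 CPM), CA2-like (33.9 and 23.2 CPM) and cycling progenitor-like nuclei (25.6 and 27.6 CPM) followed. Cajal-Retzius-like (14.6 and 32.2 CPM), astrocyte-like (14.5 and 21.8 CPM), radial glia-like (14.0 and 12.6 CPM) and microglia-like nuclei (13.7 and 16.1 CPM) were lowest.

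Pcdh10, a delta protocadherin of axon growth and synapse elimination, was led by glia and progenitors and lowest in dentate granule-like nuclei. The values were 197 and 213 CPM in astrocyte-like, 173 and 181 CPM in oligodendrocyte precursor-like and 157 and 167 CPM in radial glia-like nuclei. Cycling progenitor-like nuclei had 98.2 and 107 CPM, oligodendrocyte-like 89.0 and 94.6 CPM, inhibitory-like 81.7 and 86 CPM, CA2-like 76.2 and 60.3 CPM and committed oligodendrocyte precursor-like 73.4 and 88.1 CPM. Subicular or cortical excitatory-like nuclei had 64.7 and 68.0 CPM, CA1-like 53.0 and 39.9 CPM, CA3-like 36.7 and 36.1 CPM and microglia-like 32.9 and 34.9 CPM. Cajal-Retzius-like (24.7 and 32.2 CPM), immature dentate granule-like (17.2 and 20.3 CPM) and dentate granule-like nuclei (11.4 and 19.2 CPM) were lowest.

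Pcdh1, Pcdh20 and Pcdh8 had low levels, and microglia-like nuclei stood at or near the top of the control order for each. Control Pcdh1 ran from 12.8 CPM in Cajal-Retzius-like to 50.0 CPM in CA2-like nuclei, with 35.7 and 28.2 CPM in microglia-like, 33.5 and 32.8 CPM in astrocyte-like, 33.2 and 27.1 CPM in CA3-like, 33.2 and 23.9 CPM in dentate granule-like and 33.1 and 31.6 CPM in CA1-like nuclei. Its other control levels were 28.1 in oligodendrocyte precursor-like, 25.9 in immature dentate granule-like, 24.2 in cycling progenitor-like, 22.7 in subicular or cortical excitatory-like, 20.7 in radial glia-like, 15.2 in inhibitory-like, 14.6 in oligodendrocyte-like and 14.0 CPM in committed oligodendrocyte precursor-like nuclei. Control Pcdh20 was 39.3 CPM in immature dentate granule-like, 38.7 in microglia-like and 34.9 in dentate granule-like nuclei. It was 26.5 CPM in Cajal-Retzius-like, 26.3 in cycling progenitor-like, 24.3 in radial glia-like, 24.1 in CA2-like, 24.1 in CA3-like, 23.0 in oligodendrocyte precursor-like, 16.8 in astrocyte-like and 16.0 in CA1-like nuclei. The lowest Pcdh20 levels were 11.0 CPM in committed oligodendrocyte precursor-like, 8.33 in oligodendrocyte-like, 6.79 in inhibitory-like and 5.78 in subicular or cortical excitatory-like nuclei. Control Pcdh8, an activity-induced gene also called arcadlin, was below 10 CPM in every class, from 0.874 CPM in subicular or cortical excitatory-like to 8.54 CPM in microglia-like nuclei, and 5.45 CPM in dentate granule-like nuclei. Between these bounds it was 5.48 in Cajal-Retzius-like, 5.47 in radial glia-like, 5.26 in astrocyte-like, 5.25 in oligodendrocyte precursor-like, 4.68 in immature dentate granule-like, 4.22 in inhibitory-like, 4.15 in cycling progenitor-like, 3.27 in committed oligodendrocyte precursor-like, 1.93 in CA3-like, 1.81 in oligodendrocyte-like, 1.48 in CA1-like and 0.883 CPM in CA2-like nuclei. Pcdh8 reached 20 UMIs over both libraries in 11 classes. Cajal-Retzius-like, cycling progenitor-like, committed oligodendrocyte precursor-like and CA2-like nuclei were not among them. Its microglial level came from 28 control UMIs. In the labelled knockout, radial glia-like nuclei had the highest Pcdh8 level, 9.87 CPM from 11 UMIs. Without replicate libraries, no spread says which neighbours in these orders differ.

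**Figure D1:**
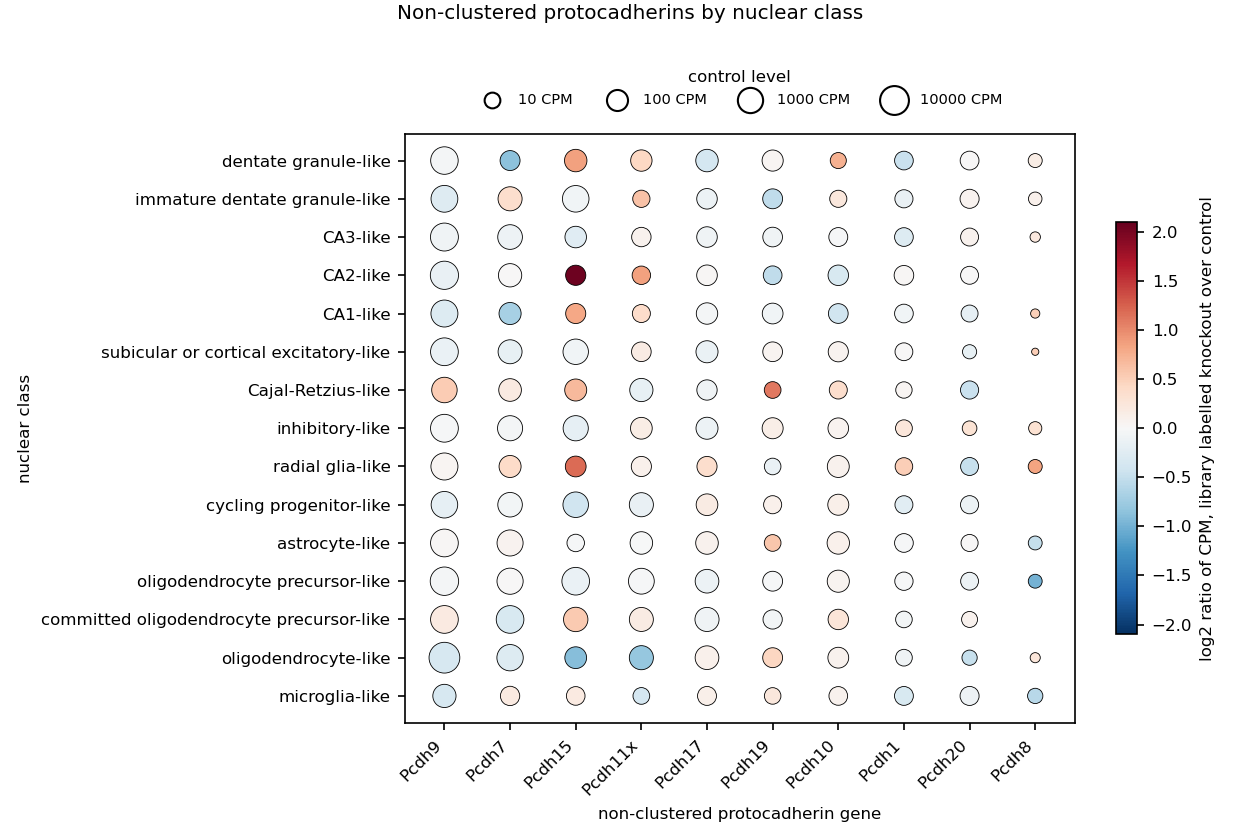
The 10 non-clustered protocadherins with at least 200 UMIs in dentate granule-like nuclei (columns) in 15 nuclear classes (rows). Point size grows with the log of the control level in CPM and colour is the log2 ratio of the labelled knockout over the control, with pairs under 20 UMIs left blank. Pcdh15 is at 2.06 in CA2-like and 1.19 in radial glia-like nuclei and at -0.89 in oligodendrocyte-like nuclei.

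In dentate granule-like nuclei (4364 control and 3310 labelled knockout), the class that sends the mossy fibres to CA3, none of the 64 members with at least 20 UMIs was 2-fold apart. The background was 6.22% of 17818 genes, 3.63% higher and 2.59% lower. The class pools 2 clusters that the libraries filled unequally, as given below. Within each cluster some members were 2-fold apart, in both directions. Examples are Pcdha1 at -1.33 in cluster 1 (27 and 36 UMIs) and Pcdhb10 at 2.12 in cluster 3 (37 and 5 UMIs). Over the pooled class, the members' ratios ran from -0.88 to 0.87 with a median of -0.01, beside 0.02 for all genes. 29 were above 0 and 35 below. The ratios furthest from 0 with narrow intervals belonged to non-clustered genes: Pcdh15, Pcdh10 and Pcdh11x were higher in the labelled knockout, and Pcdh7, Pcdh1 and Pcdh17 were lower. Of these, Pcdh10 and Pcdh1 were found in no clearly larger share of these nuclei than of microglia-like nuclei, and their ratios are not read as differences in expression.

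Pcdh15 had 11074 UMIs (206 CPM) in control and 14065 (377 CPM) in labelled knockout nuclei, for a log2 ratio of 0.87 (0.83 to 0.91). It was 0.92 among nuclei assigned to the 1 female of each pool and 0.85 among those assigned to the 2 males, by Xist and Y-linked UMIs. Pcdh7 had 3189 UMIs (59.4 CPM) in control and 1218 (32.6 CPM) in labelled knockout nuclei, for a log2 ratio of -0.86 (-0.96 to -0.77), with -1.07 in the female and -0.71 in the male nuclei. Both differences thus had the same direction in both sexes. Pcdh10 had 614 UMIs (11.4 CPM) in control and 718 (19.2 CPM) in labelled knockout nuclei, for a log2 ratio of 0.75 (0.59 to 0.91). Pcdh11x had 6331 UMIs (118 CPM) in control and 5943 (159 CPM) in labelled knockout nuclei, for a log2 ratio of 0.43 (0.38 to 0.48), and 0.16 in female against 0.55 in male nuclei. The Pcdh11x difference was positive in both sexes and smaller in the female. Pcdh1 had 1785 UMIs (33.2 CPM) in control and 894 (23.9 CPM) in labelled knockout nuclei, for a log2 ratio of -0.47 (-0.59 to -0.36). Pcdh17 had 11158 UMIs (208 CPM) in control and 5981 (160.1 CPM) in labelled knockout nuclei, for a log2 ratio of -0.38 (-0.42 to -0.33) over the class. The other non-clustered members lay close to 0: -0.04 for Pcdh9, 0.04 for Pcdh19, 0.01 for Pcdh20 and 0.15 for Pcdh8. Pcdh18 had 13 UMIs in each library, and Pcdh12 had 2 in the control and 0 in the other.

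The dentate granule-like class was 2 clusters that the libraries filled unequally. Cluster 1 held 953 control and 3184 labelled knockout nuclei, and cluster 3 held 3411 and 126. Markers of immature granule neurons moved with the class: their summed level was 121 and 179.5 CPM in control and labelled knockout, with a log2 ratio of 0.57 (0.52 to 0.62). Markers of dentate granule neurons were lower, at 5836 and 4236 CPM (-0.46). All 8 markers of each list were counted in both libraries, and their part in the class values was not tested. Within cluster 1, immature markers differed less (198 and 182 CPM), and Pcdh15 was 410.1 and 380.3 CPM, for a log2 ratio of -0.11 (-0.16 to -0.06). Within cluster 3, where the labelled knockout had few nuclei, Pcdh15 was 155 and 284 CPM, for a log2 ratio of 0.87 (0.73 to 1.02). Immature markers were 101 and 120 CPM there, 0.25 (0.02 to 0.46), and their part was not tested. The direction of the Pcdh15 difference was therefore not the same in both clusters.

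Pcdh11x, Pcdh10 and Pcdh7 kept their directions in both granule clusters. Pcdh11x was 81.0 and 157 CPM in cluster 1, for a log2 ratio of 0.96 (0.85 to 1.06), and 127 and 203 CPM in cluster 3, 0.68 (0.50 to 0.84). Pcdh10 was 7.64 and 18.8 CPM in cluster 1, 1.29 (0.96 to 1.65), and 12.4 and 30.3 CPM in cluster 3, 1.31 (0.81 to 1.74). The Pcdh11x libraries were thus further apart within each cluster than in the class as a whole. The Pcdh10 values are again not read as a difference in expression, for its share of nuclei given with the thinned counts. Pcdh7 was 41.7 and 32.5 CPM in cluster 1, -0.36 (-0.52 to -0.20), and 63.8 and 35.1 CPM in cluster 3, -0.85 (-1.29 to -0.46). The Pcdh17 difference of the class was not seen at that size in either cluster: Pcdh17 was 167 and 158 CPM in cluster 1, -0.08 (-0.16 to -0.00), and 218 and 203 CPM in cluster 3, -0.10 (-0.27 to 0.07).

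**Figure D2:**
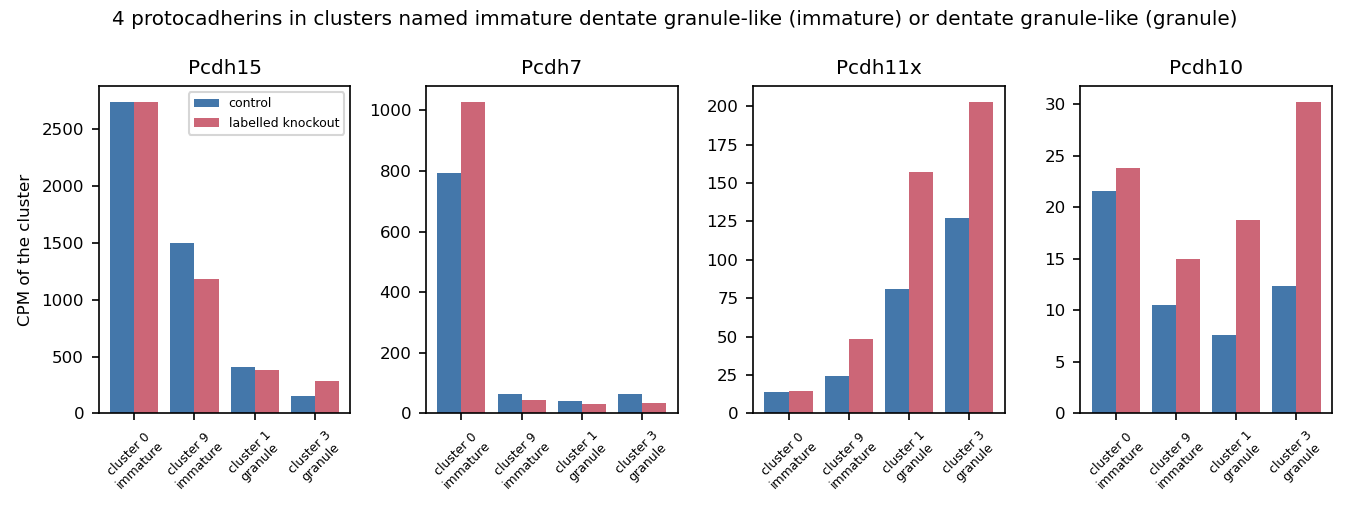
Level in CPM (bars from 0) of Pcdh15, Pcdh7, Pcdh11x and Pcdh10 in the 2 immature dentate granule-like clusters (0 and 9) and the 2 dentate granule-like clusters (1 and 3), for the control and the labelled knockout. Pcdh11x is higher in the labelled knockout in both granule clusters, whereas the Pcdh15 ratio is -0.11 in cluster 1 and 0.87 in cluster 3. The Pcdh10 bars are not read as expression.

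Free RNA can put a UMI into a nucleus that does not express the gene. Every nucleus was thinned to 2000 UMIs, and the share with at least 1 UMI was set beside that in microglia-like nuclei, a class not known for these genes. Whether microglia-like nuclei express any of them was not tested. Median depths before thinning were 11786 (control) and 10852 UMIs in dentate granule-like and 2130 and 1719.5 in microglia-like nuclei. Thinning left out 664 control and 959 labelled knockout microglia-like nuclei and 1 and 6 dentate granule-like ones. For Pcdh15 the share was 28.0% (26.6% to 29.3%) and 46.2% (44.5% to 47.9%) in dentate granule-like nuclei of the control and the labelled knockout, and 6.79% (5.17% to 8.72%) and 4.26% (2.69% to 6.37%) in microglia-like nuclei. The unthinned shares were 61.9% and 84.5% in dentate granule-like and 6.72% and 5.01% in microglia-like nuclei. Pcdh15 was thus counted well above the microglial share in both libraries.

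Pcdh11x, Pcdh17 and Pcdh19 also stood above it. The Pcdh11x shares were 15.2% (14.1% to 16.2%) and 21.2% (19.8% to 22.6%), against 2.42% and 2.51% in microglia-like nuclei. The Pcdh17 shares were 31.6% (30.2% to 33.0%) and 25.8% (24.4% to 27.4%), against 6.42% and 6.19%. Those of Pcdh19 were 18.2% and 18.1%, against 2.30% and 3.48%, and so alike in the 2 libraries. Pcdh9 was counted in 99.6% of each library's dentate granule-like nuclei and in 34.8% and 31.5% of microglia-like nuclei. Pcdh7 had shares of 9.35% (8.50% to 10.3%) and 5.66% (4.90% to 6.50%), against 6.67% and 7.93% in microglia-like nuclei, so its share in the labelled knockout was not above the microglial share. Pcdh10 was counted in 2.34% (1.91% to 2.83%) and 3.45% (2.85% to 4.13%), below the 5.82% and 6.38% of microglia-like nuclei. Pcdh20 (7.29% and 6.87%, against 6.79% and 5.80%), Pcdh1 (6.14% and 4.75%, against 5.70% and 4.64%) and Pcdh8 (0.96% and 1.15%, against 1.33% and 0.97%) were close to the microglial shares. The ratios of Pcdh10, Pcdh20, Pcdh1 and Pcdh8 in dentate granule-like nuclei are therefore not read as differences in expression, and neither is the low end of Pcdh7. Unthinned, Pcdh1 was counted in 31.6% and 23.0% of dentate granule-like nuclei, against 7.25% and 5.01% of microglia-like nuclei. Pcdh20 was in 33.2% and 30.7%, against 8.13% and 6.23%, and Pcdh8 in 6.26% and 6.34%, against 1.88% and 1.02%. Pcdh7 was in 27.3% and 20.3%, against 8.39% and 8.06%, and Pcdh10 in 11.1% and 15.3%, against 6.51% and 5.83%. Depth before thinning differed between the classes, so neither comparison decides whether these genes are expressed there.

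**Figure D3:**
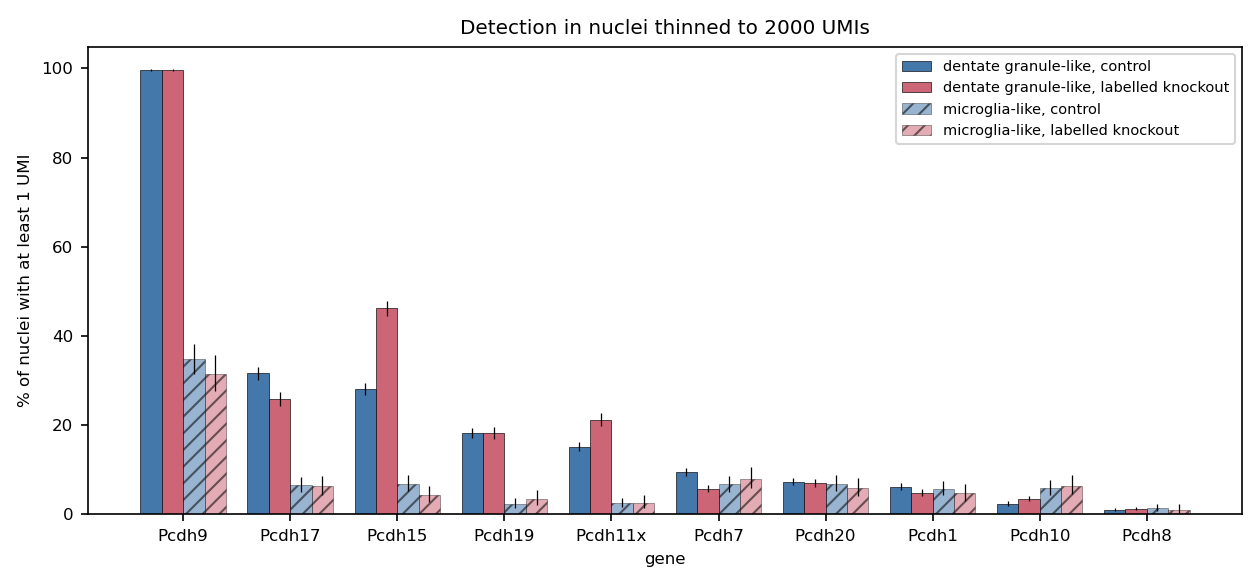
Percent of nuclei with at least 1 UMI of each of 10 non-clustered protocadherins after thinning to 2000 UMIs, in dentate granule-like and microglia-like nuclei of both libraries, with 95% Clopper-Pearson intervals. Pcdh15 is found in 28.0% of control and 46.2% of labelled knockout dentate granule-like nuclei, and Pcdh10 is lower there than in microglia-like nuclei.

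Summed over each clustered family, the 2 libraries were close in dentate granule-like nuclei. The 14 Pcdha genes had 1404 UMIs (26.1 CPM) in control and 972 (26.0 CPM) in labelled knockout nuclei, for a log2 ratio of -0.01 (-0.13 to 0.11). The 22 Pcdhb genes had 1919 UMIs (35.7 CPM) in control and 1306 (35.0 CPM) in labelled knockout nuclei, -0.03 (-0.13 to 0.07). The 22 Pcdhg genes had 2837 UMIs (52.8 CPM) in control and 1851 (49.6 CPM) in labelled knockout nuclei, -0.09 (-0.18 to -0.01). None of the 3 sums differed by more than 0.1 on the log2 scale in the class as a whole. Within cluster 1 alone, however, the Pcdhb sum was 56.7 and 35.2 CPM, for a log2 ratio of -0.69 (-0.83 to -0.55), and the Pcdha and Pcdhg sums were -0.32 (-0.50 to -0.14) and -0.32 (-0.44 to -0.19). In cluster 3 they were -0.37 (-1.01 to 0.15) for Pcdha, -0.03 (-0.52 to 0.39) for Pcdhb and -0.38 (-0.80 to -0.01) for Pcdhg, from at most 56 UMIs in the labelled knockout. Each family's ratio was thus more negative within cluster 1 than over the class.

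At 2000 UMIs a nucleus, dentate granule-like nuclei with a Pcdha UMI made up 5.75% (5.08% to 6.49%) and 5.12% (4.39% to 5.92%), against 2.18% and 2.13% of microglia-like nuclei. For Pcdhb the shares were 7.54% (6.77% to 8.36%) and 6.96% (6.12% to 7.88%), against 4.61% and 5.03%. For Pcdhg they were 9.95% (9.07% to 10.9%) and 9.29% (8.32% to 10.3%), below the 16.8% and 14.9% of microglia-like nuclei. The Pcdhg share of dentate granule-like nuclei is therefore not read as expression, and the Pcdhg values of this class are given as counts only. Unthinned, the Pcdhg shares were 44.1% and 40.1% of dentate granule-like and 17.5% and 14.7% of microglia-like nuclei. Whether the Pcdhg UMIs of either class are free RNA was not tested. At full depth, 37.2% and 33.2% of dentate granule-like nuclei held UMIs of 2 or more different clustered members, and at 2000 UMIs 2.57% and 2.48% did. At this depth the set of isoforms a single nucleus uses was not detectable.

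A few isoforms gave many of the UMIs of each clustered family in both libraries. Since capture differs between genes and shared exons make single Pcdha and Pcdhg counts uncertain, these are captured counts and not an order of expression. Pcdha11 had 319 control and 234 labelled knockout UMIs in dentate granule-like nuclei, 22.7% and 24.1% of the Pcdha sum. Pcdha5 (230 and 149 UMIs), Pcdha9 (153 and 99), Pcdha12 (122 and 79) and Pcdha4 (103 and 74) were the next by count. Of the Pcdhb genes, Pcdhb9 (276 and 163 UMIs, 14.4% and 12.5% of the family) and Pcdhb14 (262 and 157) had most, then Pcdhb7 (145 and 103), Pcdhb19 (139 and 96) and Pcdhb16 (128 and 96). Of the Pcdhg genes, Pcdhga12 (320 and 197 UMIs) and Pcdhga5 (305 and 219) had most, then Pcdhga7 (217 and 139), Pcdhgc5 (204 and 141) and Pcdhga3 (188 and 125). Over the class, the intervals of these 15 isoforms' log2 ratios included 0. The class mixes 2 clusters that the libraries filled unequally. Pcdhb9 was -1.11 in cluster 1 (104 and 161 UMIs) and -1.22 in cluster 3 (172 and 2 UMIs). In cluster 3, Pcdhb19 was -1.08 (93 and 1 UMIs) and Pcdhga7 -1.21 (171 and 2 UMIs). The largest move in family share was that of Pcdha1, with 96 control and 36 labelled knockout UMIs, for a log2 ratio of -0.88 (-1.49 to -0.32). By cluster it was -1.33 in cluster 1 (27 and 36 UMIs) and -2.23 in cluster 3 (69 and 0 UMIs). Pcdha1 was also lower in immature dentate granule-like nuclei, with 33 and 14 UMIs, -1.11 (-2.16 to -0.20), though 0.15 after thinning to 2000 UMIs, from 5 and 6. In CA3-like nuclei it went the other way, with 17 and 29 UMIs, 1.04 (0.15 to 2.01).

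The C-type isoforms were counted thinly in dentate granule-like nuclei. Pcdhac2 had 88 control and 84 labelled knockout UMIs, 0.46 (0.01 to 0.91), and Pcdhac1 had 13 and 6. Pcdhgc3 had 95 and 42 UMIs, Pcdhgc4, known for its part in neuronal survival, had 59 and 52, and Pcdhgc5 had 204 and 141, given as counts only. Control Pcdhgc3 was 15.4 CPM in astrocyte-like, 14.5 in cycling progenitor-like and 10.9 in oligodendrocyte precursor-like nuclei, and 0.995 in CA1-like and 0.629 in CA3-like nuclei. Pcdhgc3 levels were thus higher in these glia and progenitors than in CA1-like and CA3-like nuclei. Control Pcdhac2 was 2.93 CPM in inhibitory-like, 2.09 in CA1-like, 1.59 in CA3-like and 1.18 in astrocyte-like nuclei. None of these was above its 3.36 CPM in microglia-like nuclei, which came from 11 UMIs.

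Over the 15 classes, each family's sum had its own pattern. Pcdha was low in most glia: its control sum was 48.1 CPM in immature dentate granule-like, 26.1 in dentate granule-like and 27.6 in CA1-like nuclei, 29.1 in oligodendrocyte precursor-like nuclei, and 7.41 in astrocyte-like, 6.83 in oligodendrocyte-like and 6.08 in radial glia-like nuclei. Pcdhb was 124 CPM in immature dentate granule-like and 35.7 in dentate granule-like nuclei. For Pcdhg, control sums were 132 CPM in radial glia-like, 128 in astrocyte-like, 121 in oligodendrocyte precursor-like, 119.6 in cycling progenitor-like, 97.6 in microglia-like and 96.6 in immature dentate granule-like nuclei. The summed level of each of the 3 families was higher in immature than in mature dentate granule-like nuclei in both libraries, for Pcdhg with the limit given above. Over the class of immature dentate granule-like nuclei, not split by cluster, the libraries were close. The sums were 48.1 and 50.5 CPM for Pcdha, 124 and 129 CPM for Pcdhb and 96.6 and 98.1 CPM for Pcdhg.

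The Pcdhb sum had an interval above 0 in 2 excitatory classes. The Pcdhb sum was 39.9 and 52.0 CPM in subicular or cortical excitatory-like nuclei, for a log2 ratio of 0.38 (0.24 to 0.52), and 45 and 52.8 CPM in CA1-like nuclei, 0.23 (0.11 to 0.35). Size factors from the median of gene ratios shift these values by -0.0884 and -0.11, which takes the CA1 lower limit to about 0. The CA1 ratio was 0.48 in female and 0.06 in male nuclei, and the subicular or cortical one 0.43 and 0.23. The Pcdha and Pcdhg sums were 0.10 (-0.11 to 0.30) and 0.10 (-0.05 to 0.26) in subicular or cortical excitatory-like and 0.05 (-0.11 to 0.20) and 0.06 (-0.06 to 0.17) in CA1-like nuclei, with intervals that included 0. In CA3-like nuclei the sums were -0.01 (-0.21 to 0.18) for Pcdha, 0.14 (-0.02 to 0.29) for Pcdhb and -0.10 (-0.25 to 0.05) for Pcdhg. In inhibitory-like nuclei they were 0.08 (-0.09 to 0.24), 0.02 (-0.10 to 0.13) and 0.02 (-0.11 to 0.15). At 2000 UMIs a nucleus, the Pcdhg shares were 6.32% and 7.69% in subicular or cortical excitatory-like, 8.76% and 9.52% in CA1-like, 6.51% and 5.996% in CA3-like and 9.08% and 9.35% in inhibitory-like nuclei. All were below the microglial shares at that depth, and these Pcdhg ratios are not read as expression either. The CA3-like Pcdhb shares were 4.31% and 6.56%, the control one no higher than in microglia-like nuclei. Unthinned, the Pcdhg shares were 50.4% and 50.7% in subicular or cortical excitatory-like and 53.2% and 50.6% in CA1-like nuclei. They were 53.0% and 49.3% in CA3-like and 50.7% and 46.3% in inhibitory-like nuclei, against 17.5% and 14.7% in microglia-like nuclei. Depth before thinning differed between the classes, so neither comparison decides whether these Pcdhg UMIs are expression.

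**Figure D4:**
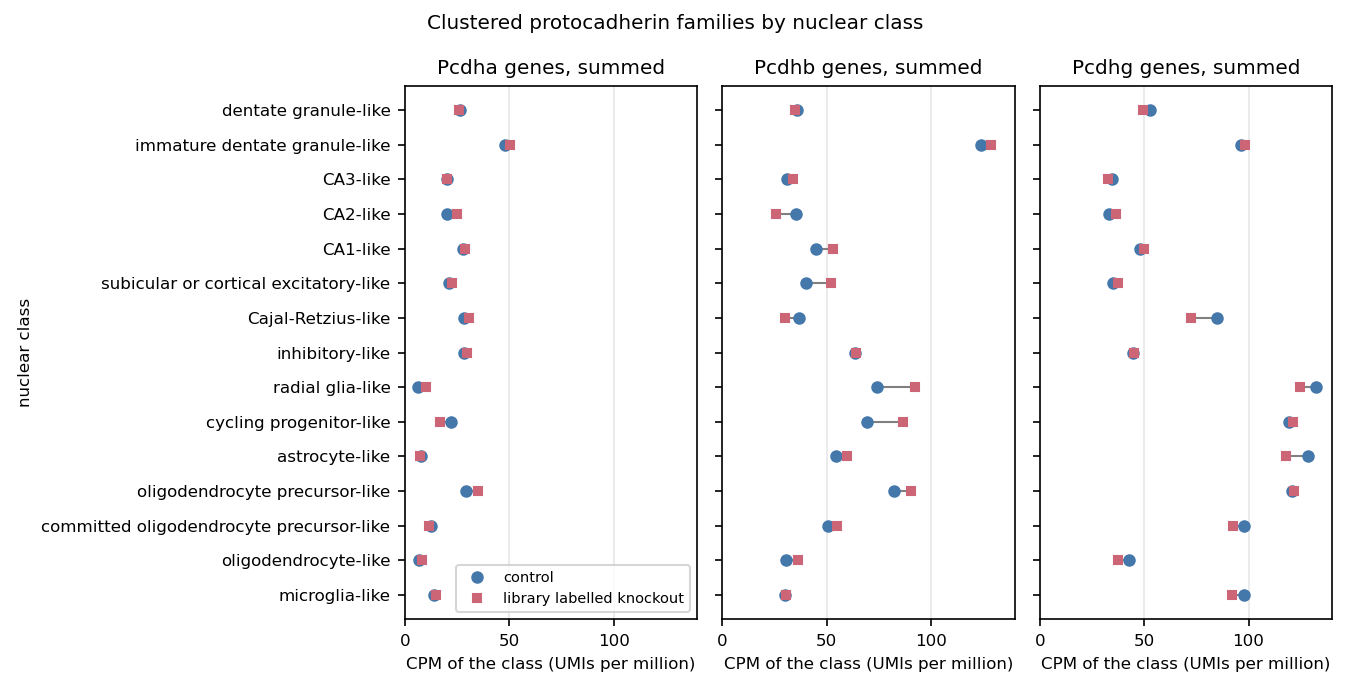
Summed level in CPM (axis from 0) of the Pcdha, Pcdhb and Pcdhg genes in each of 15 classes, as circles for the control and squares for the labelled knockout. The Pcdha sum is low in astrocyte-like and oligodendrocyte-like nuclei, the Pcdhb sum is 124 and 129 CPM in immature dentate granule-like nuclei, and the Pcdhg sum is high in radial glia-like and astrocyte-like nuclei.

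In CA1-like nuclei (1655 control and 1177 labelled knockout), none of 63 members was 2-fold apart, against 7.05% of all genes. The members' median was 0.10 and that of all genes 0.09, and size factors from the median of gene ratios would shift every ratio in CA1-like and CA2-like nuclei by -0.11. Pcdh15 was higher, with 1955 UMIs (62.7 CPM) in control and 2100 (109.6 CPM) in labelled knockout nuclei, for a log2 ratio of 0.80 (0.72 to 0.89). Pcdh7 was lower, with 5324 UMIs (171 CPM) in control and 2012 (105 CPM) in labelled knockout nuclei, -0.70 (-0.78 to -0.63). Both had the sign they had in dentate granule-like nuclei, where the labelled knockout level of Pcdh7 is not read as expression. The Pcdh7 ratio was -1.49 in female and -0.24 in male nuclei, and its direction was the same in both. Pcdh11x was 0.38 (0.23 to 0.53) over all nuclei, -0.12 in female and 0.83 in male nuclei, so its direction was not. Pcdh10 was -0.41, Pcdh9 -0.29, Pcdh17 -0.04 and Pcdh19 -0.07.

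The CA1 values depended on which nuclei were counted as CA1. 3 further clusters closest to the CA1 markers stayed unnamed, with more labelled knockout than control nuclei in each (1045 and 1240, 374 and 435, 177 and 350). With them included, Pcdh15 was 0.19 and Pcdh7 was 0.08, and at clustering resolution 2 Pcdh15 was 0.22 and Pcdh7 was -0.16. With the unnamed clusters included, Pcdh10 was -0.07 and Pcdh9 was -0.15. Pcdh10 was -0.13 in female and -0.47 in male nuclei. Markers of immature granule neurons were 51.6 and 117 CPM in control and labelled knockout (1.18 on the log2 scale, 1.08 to 1.27), and their part in the result was not tested. At 2000 UMIs, 7.49% and 15.2% of CA1-like nuclei carried a Pcdh15 UMI, so the control share was near the 6.79% of control microglia-like nuclei.

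In CA3-like nuclei (952 and 884), the target field of the mossy fibres, 3 of 60 members were 2-fold apart, against 4.5% of all genes. They were Pcdha1, described above, and Pcdha2 and Pcdhga2, with 28 control and 11 labelled knockout UMIs each, -1.02 (-2.21 to -0.01). All 3 were low counts that the stricter minimum leaves out. The members' median was -0.09, and 0.08 for all genes. Pcdh1 was -0.29 (-0.45 to -0.13), but at 2000 UMIs a nucleus its shares, 6.30% and 5.09%, were close to the 5.70% and 4.64% of microglia-like nuclei, and this ratio is not read as a difference in expression. Pcdh15 was -0.25 (-0.33 to -0.17), from 3030 and 2086 UMIs, with -0.57 in female and -0.12 in male nuclei. The direction over the class was opposite to that in CA1-like nuclei, and at 2000 UMIs a nucleus the ratio was 0.07. Pcdh7 (-0.11), Pcdh9 (-0.09), Pcdh17 (-0.08), Pcdh19 (-0.09), Pcdh20 (0.09), Pcdh11x (0.08) and Pcdh10 (-0.03) all lay within 0.11 of 0.

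**Figure D5:**
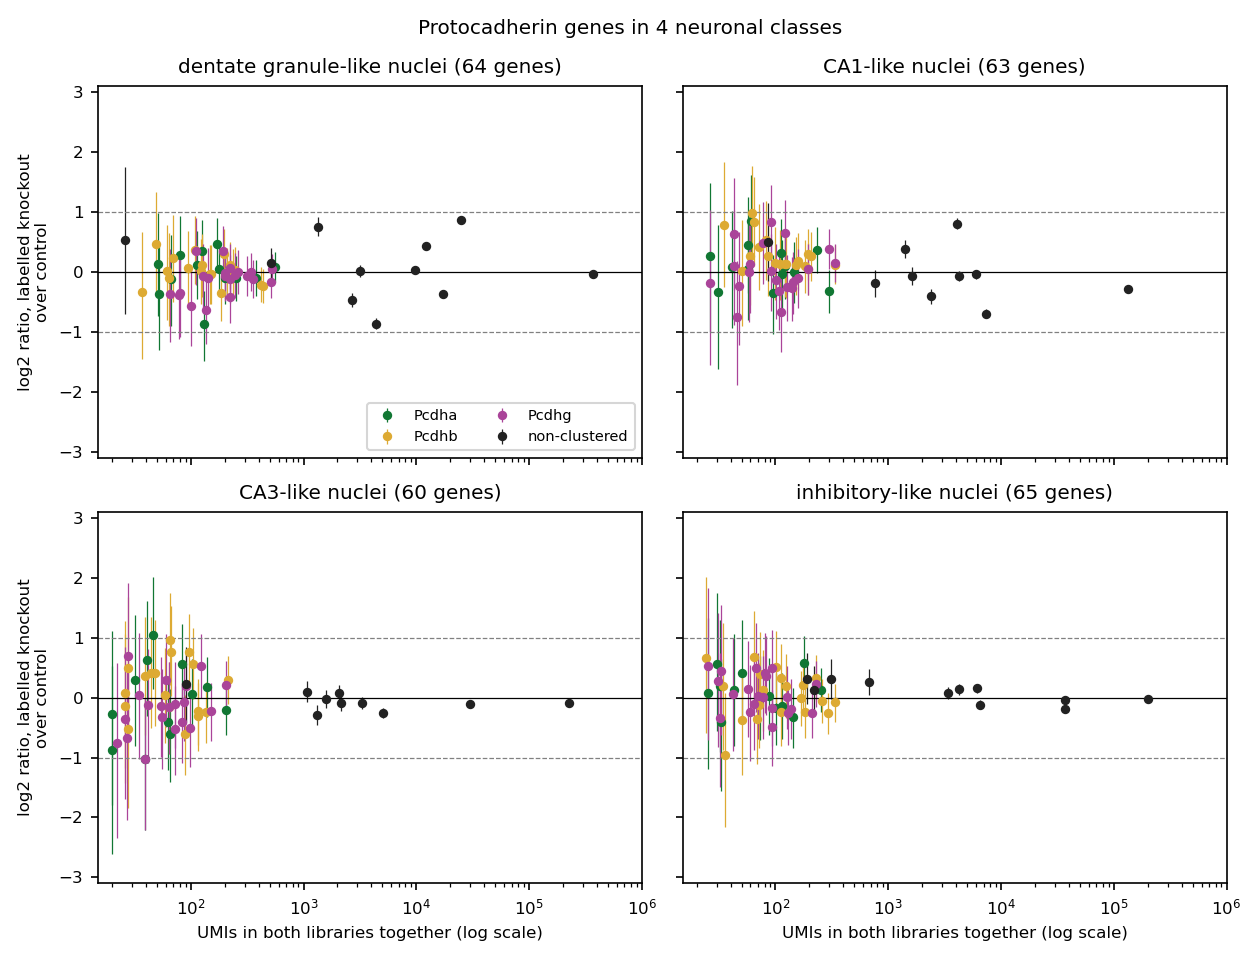
Log2 ratio (library labelled knockout over control, with 95% counting interval) against UMIs of both libraries together (log axis) for members with at least 20 UMIs in dentate granule-like, CA1-like, CA3-like and inhibitory-like nuclei. Clustered genes scatter around 0 with wide intervals, and dashed lines mark 2-fold. Pcdh15 at 0.87 and Pcdh7 at -0.86 lie furthest from 0 among the deeply counted genes in dentate granule-like nuclei.

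In CA2-like nuclei, only 141 control and 103 labelled knockout, 12 members reached the minimum and 2 were 2-fold apart, against 6.14% of all genes. Pcdh15 had 223 UMIs (65.6 CPM) in control and 589 (273 CPM) in labelled knockout nuclei, for a log2 ratio of 2.06 (1.83 to 2.29), the largest difference of any member past the stricter minimum. It was 1.96 in female and 1.91 in male nuclei. At 2000 UMIs, 14.2% (8.88% to 21.1%) and 35.9% (26.7% to 46.0%) of CA2-like nuclei carried a Pcdh15 UMI, both above the microglial shares. Pcdhb14 had 20 control and 3 labelled knockout UMIs, for a log2 ratio of -1.89 (-4.47 to -0.33). Pcdh11x was 0.86 (0.46 to 1.26), with 1.75 in female and 0.73 in male nuclei, and Pcdh19 -0.54 (-1.05 to -0.05), with 0.0039 in female and -0.68 in male nuclei and -0.24 (-2.03 to 1.32) after thinning to 2000 UMIs. The Pcdh11x shares at 2000 UMIs were 3.55% (1.16% to 8.08%) and 7.77% (3.41% to 14.7%). The control one was not clearly above the 2.42% of control microglia-like nuclei. Over the alternatives, Pcdh15 ranged from 1.46 with doublets kept to 3.06 with unnamed clusters included. Markers of inhibitory neurons (13.8 and 26.0 CPM) and of immature granule neurons (58.9 and 96.0 CPM) were also higher, and their part in the result was not tested.

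In immature dentate granule-like nuclei (2630 and 2951), where Pcdh15 is high, it hardly differed over the class as a whole. It had 33053 UMIs (2241 CPM) in control and 29460 (2132 CPM) in labelled knockout nuclei, -0.07 (-0.09 to -0.05). The class held 2 clusters, 0 and 9, and no Pcdh15 ratio is given for each. 1 of 66 members, Pcdha1, was 2-fold apart, against 2.16% of all genes. Pcdh11x had 267 UMIs (18.1 CPM) in control and 385 (27.9 CPM) in labelled knockout nuclei, 0.62 (0.39 to 0.85), the same direction as in dentate granule-like nuclei. At 2000 UMIs a nucleus its shares, 2.79% and 3.37%, were close to the 2.42% and 2.51% of microglia-like nuclei. This ratio is not read as a difference in expression. Pcdh11x levels were 24.2 and 48.4 CPM in cluster 9 and close to each other in cluster 0, at 14.0 and 14.6 CPM. Pcdh7 was 0.36 (0.32 to 0.41), opposite in sign to dentate granule-like nuclei, where the labelled knockout level is not read as expression. It was 0.38 (0.33 to 0.42) in cluster 0 and -0.53 (-0.77 to -0.29) in cluster 9. Pcdh19 had 841 and 542 UMIs in control and labelled knockout, -0.54 (-0.70 to -0.38), and Pcdh9 was -0.27 (-0.29 to -0.25).

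Among progenitors and glia of the Emx1 lineage, radial glia-like nuclei (461 and 364) had 3 of 21 members 2-fold apart, against 3.63% of all genes. Pcdh15 had 144 UMIs (87.5 CPM) in control and 222 (199 CPM) in labelled knockout nuclei, 1.19 (0.88 to 1.5), with 1.64 in female and 0.55 in male nuclei and 0.47 with doublets kept. At 2000 UMIs, 9.93% (7.19% to 13.3%) and 13.7% (9.95% to 18.3%) of radial glia-like nuclei carried a Pcdh15 UMI. These intervals overlapped, and the control one overlapped that of control microglia-like nuclei (5.17% to 8.72%). Markers of oligodendrocyte precursors, the class with most Pcdh15, moved with it: they were 169 and 221 CPM in the radial glia-like nuclei, and their part in the result was not tested. The other 2 genes were Pcdhb16 (10 and 14 UMIs) and Pcdhga5 (18 and 4). Cycling progenitor-like nuclei had 1 of 16 members 2-fold apart (Pcdhgc3, 21 and 5 UMIs), against 3.14%, and Pcdh15 there was -0.42 (-0.54 to -0.31), with -1.15 in female and -0.84 in male nuclei. At full depth, 26.4% and 27.1% of the cycling progenitor-like nuclei held a Pcdh15 UMI. Of 1697 and 953 Pcdh15 UMIs there, female nuclei held 488 and 148 and male nuclei 768 and 309. The rest came from nuclei assigned to neither sex, and both sex ratios were further from 0 than the class ratio. In astrocyte-like nuclei, 3 of 47 members were 2-fold apart (Pcdhac2, Pcdhgb2 and Pcdhga2, each under 36 UMIs in both libraries together), against 2.16%. Of the 11 non-clustered members with at least 20 UMIs there, Pcdh1, Pcdh7, Pcdh9, Pcdh10, Pcdh11x, Pcdh15, Pcdh17 and Pcdh20 lay within 0.12 of 0. Pcdh18 had 39 and 25 UMIs, -0.29 (-1.09 to 0.46). Pcdh19 was 0.59 (0.25 to 0.93) and Pcdh8 -0.51 (-1.25 to 0.19), but at 2000 UMIs a nucleus the Pcdh19 shares, 2.62% and 4.09%, were close to the 2.30% and 3.48% of microglia-like nuclei, as those of Pcdh8 were (1.21% and 0.73%, against 1.33% and 0.97%). These 2 ratios are not read as differences in expression.

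In the oligodendrocyte lineage, the precursor-like nuclei hardly differed and the oligodendrocyte-like nuclei did. In precursor-like nuclei Pcdh15 was -0.14 (-0.16 to -0.11), Pcdh7 0.01 (-0.04 to 0.05), Pcdh9 -0.04 (-0.06 to -0.02) and Pcdh11x -0.03 (-0.07 to 0.02), and 2 of 51 members were 2-fold apart (Pcdhb6 and Pcdhga10), against 2%. In committed precursor-like nuclei, 3 of 29 were 2-fold apart (Pcdhb11, Pcdhgb6 and Pcdhga11), against 3.45%. There Pcdh15 was 0.55 (0.47 to 0.64), with 0.04 in female and 0.73 in male nuclei, and Pcdh7 was -0.33 (-0.37 to -0.30).

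In oligodendrocyte-like nuclei (1187 and 950), 4 of 37 members were 2-fold apart (Pcdha12, Pcdhb18 and Pcdhb21 higher, Pcdhga6 lower), against 5.46%. Below 2-fold but deeply counted, Pcdh15 had 1432 UMIs (144 CPM) in control and 650 (77.5 CPM) in labelled knockout nuclei, -0.89 (-1.03 to -0.76), and Pcdh11x 4963 UMIs (498 CPM) in control and 2380 (284 CPM) in labelled knockout nuclei, -0.81 (-0.88 to -0.74). Pcdh9 was -0.35 (-0.36 to -0.34), with -0.57 in female and -0.21 in male nuclei, and Pcdh19 0.46 (0.29 to 0.62), with 0.41 and 0.50. Pcdh7 was -0.29 (-0.32 to -0.26) over the class but -0.70 in female and 0.01 in male nuclei, so the male nuclei did not show it. Pcdh15 and Pcdh11x were thus lower here and higher in dentate granule-like nuclei. The class held 3 clusters, with 378 and 637 nuclei in cluster 11, 663 and 178 in cluster 15, and 146 and 135 in cluster 26. Pcdh15 was 0.05 (-0.18 to 0.29) in cluster 11, -0.11 (-0.33 to 0.09) in cluster 15 and -1.71 (-2.40 to -1.11) in cluster 26. Pcdh11x was -1.13 (-1.22 to -1.04), 0.26 (0.13 to 0.38) and -0.97 (-1.33 to -0.63) in the same order. Neither gene was lower in all 3 clusters by its interval. Over the whole class, Pcdh15 was -1.57 in female and -0.38 in male nuclei and -0.39 with doublets kept. Markers of committed precursors were also lower in the class, at 1040.5 and 891 CPM, and their part in the result was not tested. Markers of oligodendrocyte precursors, the class with most Pcdh15, were 158 and 109 CPM in cluster 26, -0.54 (-0.84 to -0.24). In clusters 11 and 15 these precursor markers were 0.27 and 0.20, and their part was not tested either.

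Inhibitory neurons and microglia arise outside the Emx1 lineage, so Cre is not expected in them. In inhibitory-like nuclei (1228 and 1265), 0 of 65 members were 2-fold apart, against 1.78% of all genes. The members' median was 0.07 and that of all genes 0.05. Pcdh15 was -0.19 (-0.22 to -0.16), Pcdh7 -0.05 (-0.08 to -0.02), Pcdh11x 0.16 (0.09 to 0.23) and Pcdh17 -0.12 (-0.19 to -0.05). In female and male nuclei these were -0.03 and -0.28 for Pcdh15, 0.39 and 0.07 for Pcdh11x and -0.38 and 0.03 for Pcdh17. In microglia-like nuclei (1489 and 1476), 1 of 23 was 2-fold apart (Pcdhga5, 44 and 16 UMIs), against 2.19%. Pcdh9 there was -0.36 (-0.51 to -0.22), from 1018 and 644 UMIs, with -0.11 (-0.40 to 0.18) in female and -0.59 in male nuclei.

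In Cajal-Retzius-like nuclei (179 and 237), 1 of 11 was 2-fold apart, against 5%: Pcdh19, with 16 control and 44 labelled knockout UMIs, 1.11 (0.29 to 2.07). It was 1.55 in female and 0.34 in male nuclei and 0.15 (-1.46 to 1.96) after thinning to 2000 UMIs, so the 2-fold difference did not hold in the last 2. Pcdh15 was 0.68 (0.42 to 0.95) there, with 0.42 (-0.01 to 0.87) in male nuclei and 0.55 after thinning. Pcdh9 was 0.53 (0.43 to 0.63), with 0.15 (-0.02 to 0.33) in male nuclei and 0.25 after thinning. Both intervals in male nuclei included 0. In subicular or cortical excitatory-like nuclei (840 and 806), Pcdhga11 was the 1 of 58 members 2-fold apart, against 4.68%.

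Most of the other genes of protocadherin biology were within 2-fold in dentate granule-like nuclei. Of 19 genes for clustered promoter choice, cohesin and silencing, such as Ctcf, Rad21 and Smchd1, all 19 were measured in dentate granule-like nuclei and 0 were 2-fold apart, against 6.22% of all genes, with a median of -0.07. Of 21 intracellular partners and processing factors, 1 was 2-fold higher and 0 lower, against 3.63% of all genes higher: Rhobtb2, with 2701 control and 3917 labelled knockout UMIs, a log2 ratio of 1.06. Rhobtb2 was also the 1 of those 21 that was 2-fold apart in CA1-like (1.05) and in CA3-like nuclei (1.19), against 7.05% and 4.5% of all genes. Of 12 other large cadherins and relatives measured, 0 were 2-fold higher and 2 were 2-fold lower, against 2.59% of all genes lower: Fat3, an atypical cadherin of dendrite shaping, with 19543 and 6577 UMIs (-1.05), and Celsr1, a planar polarity cadherin, with 47 and 16 UMIs. Of the same cadherins, 0 of 12 were 2-fold apart in CA1-like and 1 of 12 in CA3-like nuclei: Fat4, a partner of the Dachsous cadherins, had 95 and 269 UMIs, a log2 ratio of 1.78.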

How the data were processed

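Gene by barcode UMI count matrices of 2 single-nucleus libraries were used as deposited; per the file headers and the submitters' processing notes the authors counted with Cell Ranger 8.0.1 on mm39. The annotation release and the treatment of intronic reads are not given in the sources used here. Both libraries came from 3′ 10x chemistry with 20000 nuclei targeted.

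Nuclei with at least 500 genes and at most 5% mitochondrial UMIs were kept (25060 and 23043), and those Scrublet called doublets (13.1% and 10.7%) were removed. Counts were normalised, 3000 variable genes without the 70 members were reduced to 30 components, and a graph of 15 neighbours was clustered (Leiden, resolution 1, 39 clusters) with scanpy 1.11.5 and leidenalg 0.10.2. Clusters were named from 22 marker lists where at least 3 detected markers led; clusters whose median depth exceeded 4 times that of their library stayed unnamed, a rule set after the clusters were seen. 11.9% and 14.8% of nuclei stayed unnamed. Raw UMIs were summed per library and class, and log2 ratios with 0.5 UMI added have exact conditional binomial intervals (scipy 1.17.1). Scripts were tested on simulated data. With 1 library per genotype no test was run.

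Given in full were members at least 2-fold apart with 50 UMIs and 10 CPM, non-clustered members with 200 UMIs in dentate granule-like nuclei, the 5 leading isoforms of each clustered family there, and C-type isoforms. Genes outside that rule that are named were chosen after their values were seen. Members and lists were chosen with earlier results of these data known. Alternatives were other scalings, filters, doublets kept, each sex, thinning to 2000 UMIs, resolution 2, clustering with the members, another pseudocount, and, chosen after seeing the data, unnamed clusters included and 1 dentate cluster alone. Overlaps used a GRCm38 annotation and promoters RefSeq on GRCm38.p6; no coordinates were taken from the mm39 files. Antisense neighbours overlap Pcdh1, Pcdh7, Pcdh8, Pcdh10, Pcdh11x, Pcdh15 and Pcdh17, and Gm15397 overlaps Pcdh15 on its own strand.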

Additional observations from a re-analysis of the deposited data

Results flagged for a closer look

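Pcdh15 differed in direction between classes, with log2 ratios of 0.87 in dentate granule-like, 0.80 in CA1-like, 2.06 in CA2-like, 1.19 in radial glia-like and 0.68 in Cajal-Retzius-like nuclei, and -0.89 in oligodendrocyte-like nuclei. Pcdh11x also did, with 0.62 in immature dentate granule-like and 0.86 in CA2-like nuclei and -0.81 in oligodendrocyte-like nuclei. At 2000 UMIs a nucleus, the Pcdh11x shares of immature dentate granule-like nuclei (2.79% and 3.37%) were close to the microglial 2.42% and 2.51%. The ratio of 0.62 is therefore not read as a difference in expression. The CA2-like control share, 3.55% (1.16% to 8.08%), was not clearly above the microglial one either. With 1 library per genotype, the Pcdh15 and Pcdh11x differences between classes were not tested. Over the alternatives, Pcdh15 ranged from 0.19 to 1.04 in CA1-like, 1.46 to 3.06 in CA2-like and 0.47 to 1.64 in radial glia-like nuclei. It ranged from -0.11 to 1.37 in dentate granule-like and from -1.57 to -0.38 in oligodendrocyte-like nuclei. Within clusters, Pcdh15 was -0.11 in dentate cluster 1 and 0.87 in dentate cluster 3. It was 0.05 in oligodendrocyte cluster 11, -0.11 in oligodendrocyte cluster 15 and -1.71 in oligodendrocyte cluster 26. Pcdh11x was -1.13 in oligodendrocyte cluster 11, also lower in cluster 26, and 0.26 (0.13 to 0.38) in cluster 15. In CA2-like nuclei it was 1.75 in female and 0.73 in male nuclei.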

How the results depend on the processing

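No paired analysis was possible because each genotype had 1 library. In dentate granule-like nuclei, the count of members at least 2-fold apart (0) became 3 of 56 in female nuclei, 1 of 63 in male nuclei, 3 of 47 after thinning to 2000 UMIs, 4 of 63 at resolution 2 and 7 of 62 in cluster 1 alone, against backgrounds of 7.14%, 6.09%, 5.54%, 7.96% and 7.4%. In CA1-like nuclei, the count (0) became 5 of 43 in female nuclei, 3 of 56 in male nuclei, 1 of 63 with doublets kept, 1 of 63 at resolution 2, and 1 of 67 with unnamed clusters included at either resolution, against 9.32%, 6.62%, 6.86%, 6.74% and 6.45% of all genes. In CA3-like nuclei, the count (3) became 0 of 9 with 50 UMIs and 10 CPM required, 0 of 10 after thinning, 1 of 60 with 1 UMI added and 1 of 62 with unnamed clusters included at either resolution, against 1.84%, 5.01%, 4.35% and, at resolutions 1 and 2, 4.09% and 4.04%. The summed Pcdha ratio in dentate granule-like nuclei (-0.01) was 0.13 in female nuclei, -0.18 after thinning and -0.32 in cluster 1. The Pcdhb sum (-0.03) was 0.45 at resolution 2 and -0.69 in cluster 1, and the Pcdhg sum (-0.09) was 0.22 and -0.32. The members' median there was 0.35 at resolution 2 and -0.35 in cluster 1. In dentate granule-like nuclei the sign of the Pcdh15 ratio held in 12 of 13 alternatives (-0.11 to 1.37), Pcdh7 in 13 of 13 (-1.07 to -0.36), Pcdh11x in 13 of 13 (0.13 to 0.96), Pcdh17 in 13 of 13 (-0.44 to -0.08) and Pcdh10 in 13 of 13 (0.28 to 1.29). In CA1-like nuclei the sign held for Pcdh15 in 12 of 12 (0.19 to 1.04), Pcdh10 in 12 of 12 (-0.52 to -0.07), Pcdh9 in 12 of 12 (-0.41 to -0.15) and Pcdh7 in 10 of 12 (-1.49 to 0.08). All alternatives reuse the same libraries, so a held sign is not independent support. Size factors from the median of gene ratios shift every dentate granule-like ratio by only -0.03, so that alternative could hardly change a sign. The sex groups are 1 and 2 mice per library and show only the spread within each pool. Of 21782 control and 20569 labelled knockout nuclei, 6444 and 6294 were assigned female and 9466 and 9126 male, the rest neither. Depth limits single clustered genes: 23 of the 25 pairs 2-fold apart had under 100 UMIs.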
